A study of Arabidopsis thaliana with 6 samples.

Results

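The expression of 5 genes of wall loosening was described in Arabidopsis seedlings treated with NJ15: XTH16 (AT3G23730), XTH18 (AT4G30280), XTH20 (AT5G48070), EXPA8 (AT2G40610) and EXPB1 (AT2G20750). They were taken by symbol, with the probe set of the highest mean per gene, and each gene had 1 probe set, so 5 of the 13355 genes with a named probe set are covered. The NJ15 seedlings were Col-0 wild type grown upright for 4 days, sprayed with 10 µM NJ15, a tetrazole compound with a dichlorophenyl ring and an acetic acid ethyl ester, turned by 90 degrees and harvested after 8 h. The mock seedlings were also Col-0, stood for the same 4 days and were turned and harvested in the same way after a mock spray. Each group had 3 arrays, which the labels call biological replicates, and RNA came from whole seedlings. In such bulk RNA, fewer cells of a type and less RNA per cell cannot be told apart.

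The growing plant cell is held by cellulose microfibrils embedded in hemicelluloses and pectin. Xyloglucan is the main hemicellulose of these walls, and the xyloglucan endotransglucosylase/hydrolases (XTH) cut its chains and join the cut end to another chain or to water. Expansins have no known hydrolytic activity; they loosen the contact between wall polymers at acid pH, as in auxin-driven growth. In gravitropism the 2 sides of an organ elongate unequally, which is why genes of wall loosening are of interest in a turned seedling.

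The 5 genes were chosen on the NJ15 minus mock difference and on how far the 2 groups lay apart, so those values are given as a description, without a test. All values are deposited log2 levels of a probe set. Probe sets differ in how strongly they bind their transcript, so the order of levels between genes is not an order of transcript amounts. Of the 22746 probe sets tested, 16602 (73.0%) held 6 nearly equal values, spanning no more than 0.01 log2 units, and are called flat; the 5 genes all belonged to the 6144 varying ones. The mock arrays differed among themselves in markers of green tissue. The 4 varying markers, RCA, PRK, LHCB4.1 and LHCB4.2, averaged 11.00, 11.62 and 11.59 in NJ15 replicates 1, 2 and 3, against 10.75, 11.44 and 12.06 in mock replicates 1, 2 and 3. Mock replicate 1 was the lowest and mock replicate 3 the highest of all 6 arrays. The mean of the markers did not separate the groups, and their part in the results below was not tested. Of the root hair list, 2 of 8 genes had a named probe set and both were flat. Root tip, endodermis and vascular tissue had no marker with a named probe set and were not followed.

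The 3 XTH genes had lower means and the 2 expansin genes higher means in NJ15 seedlings than in mock seedlings. The mean of the 3 XTH genes was 7.91, 7.98 and 8.42 in NJ15 replicates 1, 2 and 3, against 8.56, 8.93 and 8.85 in mock replicates 1, 2 and 3. Every NJ15 array lay below every mock array in this mean, and the log2 difference was -0.67 with a standard error of 0.19. Averaging narrowed the spread. The SD within groups, pooled over NJ15 and mock, was 0.24 for this mean, against an average of 0.48 over the 3 genes. In mock replicate 3, XTH16 lay at 1.42 and XTH18 at -0.29 relative to the gene's own mean, and these deviations partly cancelled. Taken singly, the XTH18 groups overlapped. The mean of EXPA8 and EXPB1 was 9.01, 8.94 and 9.19 in NJ15 seedlings, against 8.57, 8.81 and 8.65 in mock seedlings, a log2 difference of 0.37 with a standard error of 0.10. The opposite direction of the 2 families follows from the choice of the 5 genes and is no independent observation. As the choice also used how far the groups lay apart, the separation in the 2 means is none either.

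**Figure D1:**
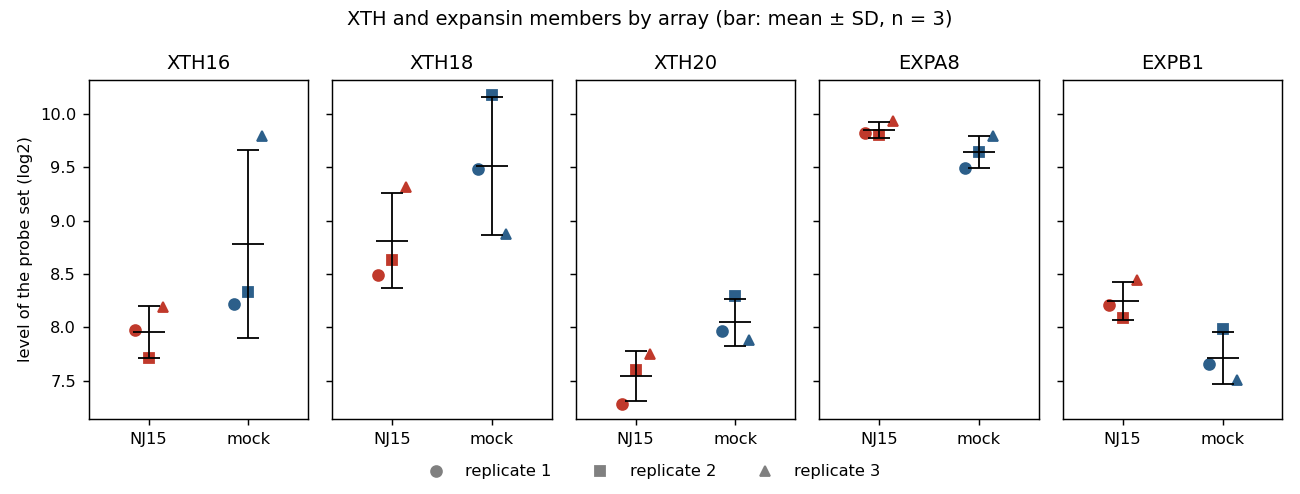
Log2 level of each of the 5 genes on every array, NJ15 left and mock right in each panel, with symbols for the replicate number and bars for mean ± SD (n = 3). XTH16 has 1 high array, mock replicate 3 at 9.79, and the XTH18 groups overlap, while EXPA8 stays between 9.49 and 9.94 on all arrays.

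XTH16 had the largest difference of the 5 genes, and much of it came with 1 array. Its level was 7.97, 7.71 and 8.19 in NJ15 seedlings, against 8.22, 8.33 and 9.79 in mock seedlings. The groups did not overlap, but only 0.03 log2 units lay between the highest NJ15 array and the lowest mock array, and mock replicate 3 was far above the other mock arrays. The means were 7.96 ± 0.24 in NJ15 and 8.78 ± 0.88 in mock seedlings (SD, n = 3 each), a log2 difference of -0.82 with a standard error of 0.53, or a 1.77-fold lower level with NJ15. Without mock replicate 3 the log2 difference was -0.32, and the SD within groups was 0.20 in place of 0.64.

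XTH18, which is known for expression in roots, was lower in NJ15 seedlings on average but not in every array. It stood at 8.49, 8.63 and 9.32 in NJ15 seedlings, against 9.48, 10.17 and 8.87 in mock seedlings. NJ15 replicate 3 lay above mock replicate 3, so the groups overlapped. The means were 8.81 ± 0.44 in NJ15 and 9.51 ± 0.65 in mock seedlings (SD, n = 3 each), a log2 difference of -0.70 with a standard error of 0.45, or a 1.62-fold lower level. The log2 difference was -0.37 without mock replicate 2 and -1.02 without mock replicate 3, and without that last array the groups no longer overlapped.

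XTH20, a further root-expressed gene of the same branch of the family, differed most evenly among the XTH genes. It had 7.28, 7.60 and 7.75 in NJ15 seedlings, against 7.97, 8.30 and 7.88 in mock seedlings. All NJ15 arrays lay below all mock arrays, with 0.13 log2 units between the nearest ones. The means were 7.54 ± 0.24 in NJ15 and 8.05 ± 0.22 in mock seedlings (SD, n = 3 each), a log2 difference of -0.50 with a standard error of 0.19, or a 1.42-fold lower level. Leaving out single arrays kept the difference between -0.61 and -0.37.

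EXPA8, an alpha-expansin, had the smallest difference and the smallest spread of the 5 genes. Its level was 9.82, 9.80 and 9.94 in NJ15 seedlings, against 9.49, 9.64 and 9.80 in mock seedlings. The groups were apart by no more than 0.00036 log2 units, because NJ15 replicate 2 and mock replicate 3 were nearly equal. The means were 9.85 ± 0.075 in NJ15 and 9.64 ± 0.15 in mock seedlings (SD, n = 3 each), a log2 difference of 0.21 with a standard error of 0.098, or a 1.16-fold higher level. Without mock replicate 1 the log2 difference was 0.13.

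EXPB1, a beta-expansin, had the larger difference of the 2 expansin genes. It stood at 8.21, 8.09 and 8.44 in NJ15 seedlings, against 7.66, 7.98 and 7.50 in mock seedlings. Each NJ15 array was above each mock array, with 0.11 log2 units between NJ15 replicate 2 and mock replicate 2. The means were 8.25 ± 0.18 in NJ15 and 7.71 ± 0.24 in mock seedlings (SD, n = 3 each), a log2 difference of 0.53 with a standard error of 0.17, or a 1.45-fold higher level. Leaving out single arrays kept it between 0.43 and 0.67.

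In 4 of the 5 genes the groups did not overlap, 2 lower and 2 higher in NJ15 seedlings, with EXPA8 apart by only 0.00036 log2 units. Among all varying probe sets the groups did not overlap in 12.5%, of which 5.96% were lower and 6.51% higher in NJ15 seedlings. None of the 5 passed limma at an adjusted p under 0.05 over all tested probe sets, and 2 had an unadjusted p under 0.05, as had 5.51% of all probe sets and 7.28% of the varying ones. By adjusted p that fit called 0.193% of all probe sets, 44 in number, of which 40 were flat. As the 5 genes were chosen on this contrast, nothing is read from these counts.

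XTH16 and XTH18 spread more between replicates than the 2 expansin genes, while XTH20 and EXPB1 were close to each other. The SD within groups, pooled over NJ15 and mock, was 0.64 for XTH16, 0.56 for XTH18 and 0.23 for XTH20, and it was 0.21 for EXPB1 and 0.12 for EXPA8, on the log2 scale. The 0.64 of XTH16 became 0.20 without mock replicate 3. The order of XTH20 and EXPB1 turned among mock arrays alone, with an SD of 0.22 for XTH20 and 0.24 for EXPB1, and without NJ15 replicate 1, with a pooled SD of 0.19 for XTH20 and 0.25 for EXPB1. Of all varying probe sets, 93.2% had a smaller pooled SD than XTH16, 90.5% a smaller one than XTH18 and 61.6% a smaller one than XTH20. The same share was 59.1% for EXPB1 and 37.2% for EXPA8, and the median SD of all varying probe sets was 0.17. In units of this SD the order of the differences changed: EXPB1 was at 2.49, XTH20 at -2.21 and EXPA8 at 1.73, while XTH16 was at -1.28 and XTH18 at -1.25. In 4 of the 5 genes, XTH20 being the exception, the mock arrays spread more than the NJ15 arrays, as in 72.1% of all varying probe sets.

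**Figure D2:**
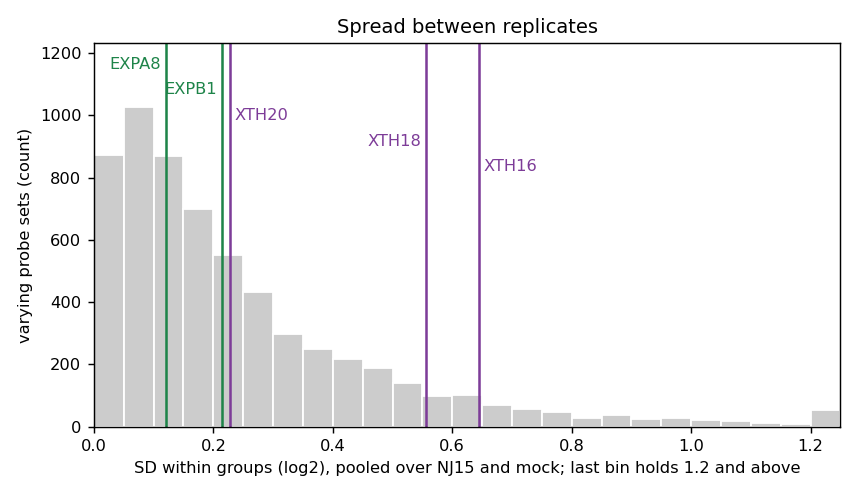
Histogram of the SD within groups (log2, pooled over NJ15 and mock) over the 6144 varying probe sets, with a vertical line for each of the 5 genes, XTH in purple and expansins in green. EXPA8 at 0.12 lies in the crowded low part, EXPB1 and XTH20 lie side by side at 0.21 and 0.23, and XTH18 and XTH16 lie in the upper tail at 0.56 and 0.64.

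The 5 genes differed in which mock array was the highest. Relative to the other 2 mock arrays, replicate 3 was the highest for XTH16 and EXPA8 and the lowest for XTH18, XTH20 and EXPB1. Mock replicate 2 was the highest mock array for XTH18, XTH20 and EXPB1. Among NJ15 arrays, replicate 3 was the highest for all 5 genes, the XTH and the expansin genes alike. This was not particular to them: with the 5 included, it held for 6 of the 7 varying XTH genes and 7 of the 10 varying expansin genes. The share over all varying probe sets was not computed. Without mock replicate 3 the log2 differences were -0.32 for XTH16, -1.02 for XTH18, -0.59 for XTH20, 0.29 for EXPA8 and 0.43 for EXPB1.

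The rest of the XTH family was compared next. The gene table lists 33 XTH genes. A named probe set was found for 10 of them, and besides XTH16, XTH18 and XTH20 these were 4 varying and 3 flat ones. XTH19, the direct neighbour of XTH18 in the gene table and also known from roots, had 9.35, 9.50 and 10.50 in NJ15 seedlings, against 10.56, 10.94 and 9.41 in mock seedlings. XTH33 had 6.90, 7.17 and 7.76 in NJ15 seedlings, against 7.69, 8.64 and 7.28 in mock seedlings. Both had the extremes of XTH18, with mock replicate 2 the highest and NJ15 replicate 1 the lowest, and in both the groups overlapped. Their log2 differences were -0.52 with a standard error of 0.59 for XTH19 and -0.59 with one of 0.48 for XTH33.

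XTH32 and EXGT-A3, which is also known as XTH27 and from work on leaf tracheary elements, had small differences. Their log2 differences were -0.10 with a standard error of 0.22 and -0.0011 with one of 0.067, and in both the groups overlapped. XTH21, XTH26 and XTH29 were flat, at levels of 6.29, 6.17 and 6.08, so their probe sets say nothing about a change. None of the 7 other XTH genes passed limma over all probe sets, which 0.193% of all probe sets did. Of the 7, 0 had an unadjusted p under 0.05, which 5.51% of all probe sets and 7.28% of the varying ones had. With so few genes, nothing is read from these counts. The median log2 difference of the 4 varying ones was -0.31, against -0.0062 over all varying probe sets, and it was -0.12 without mock replicate 2. The groups did not overlap in 0 of these 4, and in 12.5% of all varying probe sets.

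**Figure D3:**
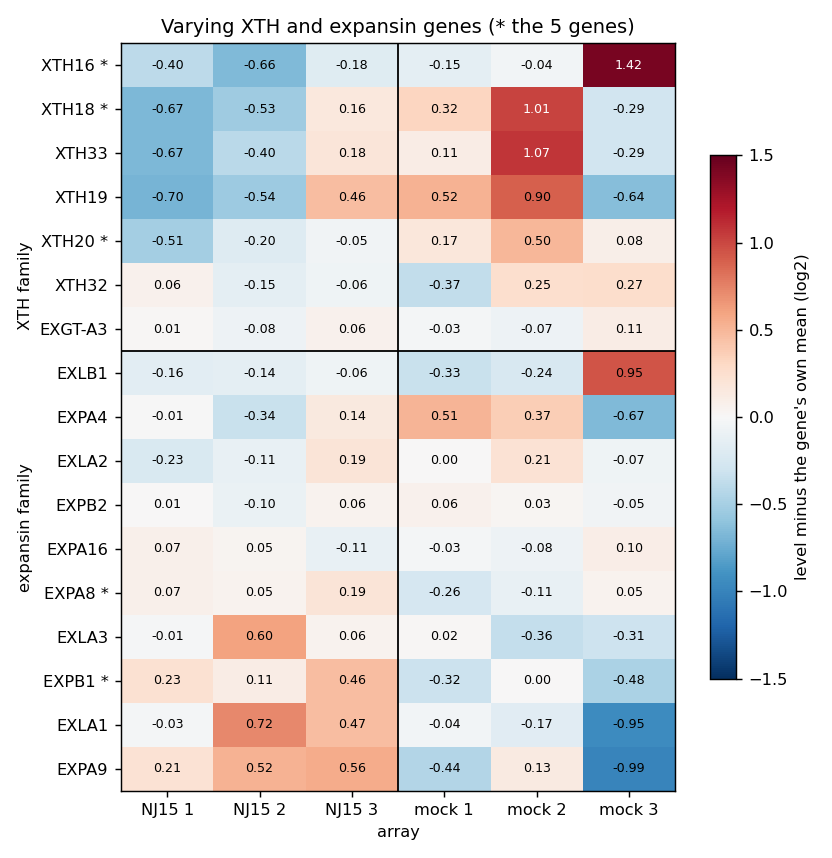
Level of each varying XTH and expansin gene on the 6 arrays after subtracting the gene's own mean (log2, red above and blue below it), with NJ15 arrays left of mock arrays and a star at the 5 genes. XTH18, XTH33, XTH19 and XTH20 share their highest value in mock replicate 2 and their lowest in NJ15 replicate 1, while XTH16 and EXLB1 are high in mock replicate 3 alone.

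The expansins other than EXPA8 and EXPB1 did not share one direction. A named probe set was found for 19 of 37 expansin and expansin-like genes. Of the 17 others 8 varied, 4 with a higher and 4 with a lower mean in NJ15 seedlings. EXPA9, an alpha-expansin, had 9.32, 9.62 and 9.67 in NJ15 seedlings, against 8.67, 9.24 and 8.12 in mock seedlings. EXLA1, an expansin-like gene, had 8.92, 9.67 and 9.42 in NJ15 seedlings, against 8.91, 8.79 and 8.01 in mock seedlings. In both the groups did not overlap, but for EXLA1 only 0.0094 log2 units lay between them. Of all varying probe sets, 6.51% had groups that did not overlap with NJ15 higher. The log2 differences were 0.86 with a standard error of 0.34 for EXPA9 and 0.77 with one of 0.36 for EXLA1. Both were larger than that of EXPB1.

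EXLA3 had a log2 difference of 0.43 with a standard error of 0.23 and overlapping groups. EXLB1 had one of -0.25 and shared the outlying array of XTH16: it stood at 6.94, 6.96 and 7.04 in NJ15 seedlings, against 6.77, 6.86 and 8.05 in mock seedlings. EXPA4 had -0.14, EXLA2 -0.10, EXPB2 -0.02 and EXPA16 0.01, each with overlapping groups. Among the 9 flat genes were EXPA7 and EXPA18, which are known from root hairs, at levels of 6.42 and 6.51. EXPA15 and EXPB3 were flat too, at 8.73 and 8.75, so flat did not always go with a low level. The flat probe sets say nothing about a change. None of the 17 other expansin genes passed limma over all probe sets, which 0.193% of all probe sets did. Of the 17, 0 had an unadjusted p under 0.05, which 5.51% of all probe sets and 7.28% of the varying ones had. Nothing is read from these counts. The median log2 difference of the 8 varying ones was -0.0085, against -0.0062 over all varying probe sets.

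**Figure D4:**
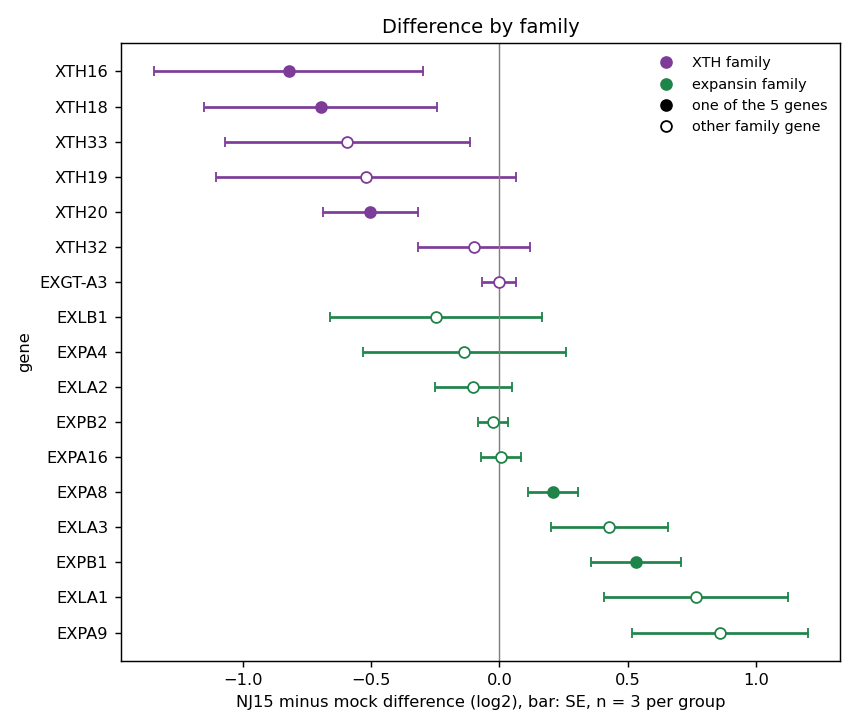
NJ15 minus mock difference (log2) of every varying XTH gene (purple) and expansin gene (green), filled for the 5 genes and open for the others, with the standard error as bar (n = 3 per group). The 7 XTH genes lie between -0.82 and -0.0011, and the 10 expansin genes between -0.25 and 0.86.

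The likeness of array patterns was described for each of the 5 genes over all 6 arrays, by the root mean square (RMS) of the difference between 2 profiles after each was reduced by its own mean. Each gene was set against the 3057 other genes with a varying probe set. The measure takes the size of the changes into account, so small values are common for genes that vary little. The profiles also hold the NJ15 minus mock difference, on which the 5 genes were chosen. Ranks of the 5 genes among each other, and a direction shared with the closest genes, are therefore no independent observation. For XTH18 the closest gene of all was XTH33, at an RMS of 0.11 log2 units, and the next was XTH19 at 0.21, where the median gene was at 0.58. XTH20 was at rank 10 and AT3G05920 at rank 3, with an RMS of 0.32 and 0.25. XTH16 ranked 2832 in the same list, at 0.86. XTH18 and XTH19 are near relatives, and whether their probes also bind the other's transcript was not analysed here.

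**Figure D5:**
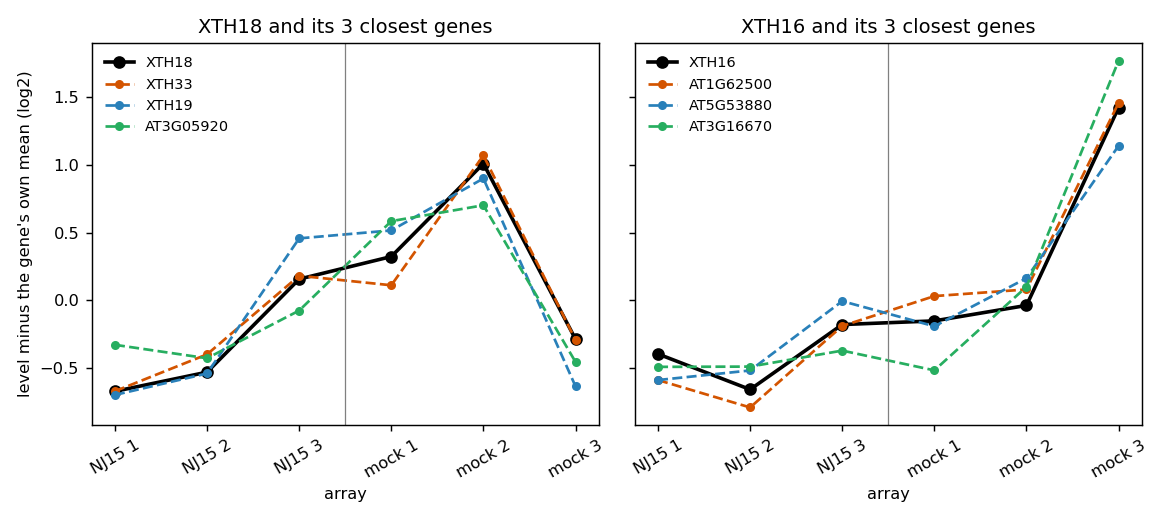
Level minus the gene's own mean (log2) on the 6 arrays for XTH18 (left, black) and XTH16 (right, black) with the 3 closest genes of each in colour; the lines only join points of 1 gene. XTH33 and XTH19 follow XTH18 through its high value in mock replicate 2, and the 3 genes beside XTH16 share its high value in mock replicate 3.

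XTH16 was closest to AT1G62500, AT5G53880 and AT3G16670, at an RMS of 0.13, 0.19 and 0.24, where the median gene was at 0.67. All 3 were highest in mock replicate 3, at 9.16, 9.40 and 8.81. Of the families described here, the nearest to XTH16 was EXLB1, at rank 13 with an RMS of 0.33, and XTH20 was at rank 867. XTH20 was closest to AT5G67020, AT3G43960 and AT2G39980, at 0.075, 0.11 and 0.12, where the median gene was at 0.34. In the list of XTH20 the gene XTH18 was at rank 1141 with the same RMS of 0.32, close to the median gene of that list.

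EXPB1 was closest to AT5G39080 at an RMS of 0.050, to LEA4-5, a late embryogenesis abundant protein made under water deficit, at 0.089, and to Hsp70-2, a cytosolic chaperone, at 0.10, where the median gene was at 0.35. EXPA8 was at rank 129 in the list of EXPB1 and EXPA9 at rank 222. EXPA8 was closest to AT5G59480, AT2G27680 and AT4G33550, at 0.039, 0.069 and 0.071, where the median gene was at 0.21, and EXPB1 was at rank 1928 in its list. Among NJ15 arrays both expansin genes had the same order, highest in replicate 3 and lowest in replicate 2. Among mock arrays the order differed, and replicate 3 was the highest for EXPA8 and the lowest for EXPB1.

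Other genes of the wall were few on the named part of the array. None passed limma over all probe sets, which 0.193% of all probe sets did. Measured stands here for having a named probe set. As 8730 probe sets were not listed with a gene, the other genes may still be on the array. Of 17 genes of xyloglucan synthesis and trimming 5 were measured and 2 varied, CSLC04, which makes the glucan backbone of xyloglucan, with a log2 difference of 0.10 and ATCSLC08 with -0.02; neither had an unadjusted p under 0.05. Of 17 genes of cellulose synthesis the 1 measured was COB, a protein of oriented cell expansion, at -0.15, also without an unadjusted p under 0.05. Of 43 pectin genes 6 were measured and 3 varied, 1 of them with an unadjusted p under 0.05, which 7.28% of all varying probe sets had. Among these ATPMEPCRB, a pectin methylesterase gene, had 7.45, 7.90 and 7.74 in NJ15 seedlings, against 8.01, 8.26 and 8.52 in mock seedlings, a log2 difference of -0.57 with the groups apart. ATPMEPCRD had 0.15 and GAUT15 -0.02, both with overlapping groups. None of the 11 listed proton pump genes, whose products acidify the wall, and none of the 16 listed brassinosteroid genes had a named probe set. The symbol search for wall proteins found no wall protein with one, its single match PRP39 being a factor of pre-mRNA processing that shares the symbol.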

How the data were processed

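Total RNA of 6 seedling samples was labelled by 3 prime in vitro transcription and put on Affymetrix arrays, per the labels' protocols. The authors used R 2.7.2, per the submitters' processing notes; how probes were corrected, normalized and summarized is not given in the sources used here. Deposited values were read as log2 levels, from their range of 5.30 to 14.04. Signal over background is unknown, and precision is limited by having 3 arrays a group.

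Values were used as deposited, without 64 control probe sets. For the fit, the value of 1 array was subtracted within each probe set and the result rounded to 9 decimals. NJ15 was compared with mock by limma 3.58.1 in R 4.3.3 (lmFit and eBayes, two-sided, Benjamini-Hochberg over 22746 probe sets). A trial on simulated data used the varying probe sets only, so it does not cover the fit with the flat ones. Standard errors come from the 2 group SDs. Of the probe sets, 13513 had 1 gene, 503 several and 8730 were not listed; the RefSeq gene table of TAIR10.1 gave current symbols. Figures used matplotlib 3.10.9.

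The members and lists were chosen with earlier results of these data known. Named were the 5 genes, every other varying XTH and expansin gene, up to 3 varying genes of each wall list with the largest difference, and the 3 genes most alike each of the 5. Flat genes and further ranks within the families were named after their values were seen. Alternatives were quantile normalization, 2 centrings, filters, a trend prior, the replicate number as a block and each array left out.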

Additional observations from a re-analysis of the deposited data

How the results depend on the processing

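For the 5 genes and the 2 family means, the sign of the difference was kept under quantile normalization and both centrings. The separation of the EXPA8 groups, by 0.00036 log2 units, depends on the scaling. The common median was 7.274 for NJ15 replicate 2 and 7.247 for mock replicate 3, so centring on it puts the former below the latter for EXPA8. The replicate block gives the same difference by construction. Leaving out an array could turn the sign of XTH18 only, because in the others the groups did not overlap in the values as deposited. XTH18 kept its sign without each array in turn. With arrays left out in turn, XTH16 ranged from -1.10 to -0.32, XTH18 from -1.02 to -0.37 and EXPA8 from 0.13 to 0.29. The median of the other varying XTH genes ranged from -0.46 to -0.12, and that of the other varying expansin genes from -0.021 to 0.11, so its sign turned in 4 of the 6. Every measured XTH and expansin gene had 1 probe set, so averaging probe sets gave no other value. The 44 limma calls became 4 over varying probe sets only, 1 without the lowest 25% of means and 17165 after centring on the common median. That 1 call was flat, and so were 16591 of the 17165, where centring shifts nearly equal values by array. The 17165 is therefore not read as a count of NJ15 differences. The 44 calls became 0 after quantile normalization (3347 with an unadjusted p under 0.05) and with an intensity trend and robust prior (886). They also became 0 with the replicate block (1208) and with the block over varying probe sets (449), the last chosen after seeing the data. Left-out arrays gave 4 to 15 calls, and 1 probe set per gene gave 31, of which 29 were flat. Same-numbered arrays deviated together in replicates 1 and 3 (r = 0.586 and 0.192 over 6144 probe sets) but not in replicate 2 (r = -0.305). Among arrays of different number, r was 0.417 for NJ15 replicate 3 with mock replicate 2. It was 0.331 for NJ15 replicate 2 with mock replicate 3, and the remaining values lay between -0.523 and -0.066. The numbers were therefore not taken as pairs.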
